A study of Camellia sinensis with 6 samples.

Results

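Auxin-related unigenes of the tea cultivar ‘Huangjinya’ (Camellia sinensis), whose leaves are yellow in sunlight and green in shade, were described in leaves with and without shading. They were chosen by the words of their Nr annotation, the name of the best protein match, with a search for auxin, indole-3-acetic, IAA-amino acid, indole-3-pyruvate, YUCCA or tryptophan aminotransferase. The search found 311 of 127252 unigenes, and no expression value was used in it. RNA came from the third leaf from the top of 2-year-old field plants, either without a net (libraries Y1 to Y3, yellow leaves) or after 10 days beneath a net taking away 45% of the light (Y+S1 to Y+S3, green leaves), with different plants for each of the 3 libraries of a group. Values per library follow the order of these numbers. The study set Y1 and Y+S3 aside in its search for DEGs because they deviated from the rest, so each comparison was made over the other 4 libraries and over all 6. The column codes of the table were read with the key deposited beside it. The sample descriptions contradict that key for the codes of Y1 and Y+S3, always within a group, so the choice of the 4 libraries depends on the key.

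Auxin is the plant hormone that steers cell elongation, leaf expansion and vein formation. Its main form, indole-3-acetic acid (IAA), is made from tryptophan by aminotransferases of the TAA1/TAR family and YUCCA monooxygenases, bound to amino acids by GH3 synthetases and released again by ILR1-type hydrolases. Influx carriers of the AUX1/LAX family and PIN efflux carriers move it between cells. In the nucleus, F-box receptors with bound auxin mark Aux/IAA repressors for degradation, which frees auxin response factors (ARFs) to act on target genes such as the small auxin-up genes (SAUR). In Arabidopsis, shade is known to act on growth partly through auxin synthesis and transport.

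The 311 unigenes belonged to 220 clusters or single unigenes. Contigs of 1 cluster share sequence, and 146 of the 311 were such contigs, so their counts are less certain than those of the 165 single unigenes. By role, 52 belonged to synthesis and conjugation (23 GH3 synthetases, 23 ILR1-type hydrolases, 5 TAA1/TAR aminotransferases and 1 YUCCA monooxygenase). Transport had 43, with 18 PIN carriers, 10 AUX1/LAX carriers, 8 fragments or contigs of BIG, 6 putative auxin:hydrogen symporters and 1 AXR4. Aux/IAA repressors (25), ARFs (105) and F-box receptors (4) made up 134, and 28 were SAUR. The other 54 carry auxin in their name and were put in none of these roles. Among them are 37 named 5NG4 or putative auxin-induced protein, which Swiss-Prot matches to WAT1 or its relatives. Swiss-Prot had a hit for 294 of the 311, and the hit named an auxin term in 244. Their median length was 1258 nt, against 563 nt for all unigenes. Every unigene of the set had at least 1 count, and 207 reached a mean FPKM of 1.

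The libraries held between 10022397 and 18742989 counted fragments, of which the auxin-related unigenes took 0.305%, 0.341% and 0.333% in sunlight and 0.394%, 0.393% and 0.415% in shade. The limit set by a count of 0 is 3 counts, 0.160 to 0.299 CPM (counts scaled to a common library total), for counting error only. Leaf mesophyll markers summed to between 44129 and 80361 FPKM and floral markers to between 10.6 and 22.3 FPKM. The 438 unigenes whose best hit is a fungus, insect, oomycete or bacterium summed to 4526 FPKM in Y+S3 and to 299 to 983 FPKM in the other 5 libraries. Y1 and Y+S3 also stood apart in length, with a count-weighted mean unigene length of 1341 and 1376 nt where the rest had 1508 to 1674 nt. The part of these differences in the results was not tested. Fewer cells of a type and less RNA per cell cannot be told apart in leaf samples of this kind.

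Shading was compared with sunlight over the 4 libraries of the study’s search with edgeR’s quasi-likelihood test. Of the auxin-related unigenes 230 passed the filter on low counts, and 0 had an adjusted p of 0.05 or less, where 0.0529% of the 64281 unigenes tested did (0.0451% with a higher value under shading). At an unadjusted p under 0.05 there were 45 of the 230, against 14.9% of all. The fitted value was higher under shading in 157 and lower in 73, against 51.9% higher among all, and the median log2 fold change was 0.30, against 0.03 for all unigenes tested. The pair left out of the 4 did not repeat this lean. In it the median log2 ratio of Y+S3 to Y1 was -0.17, against -0.07 for all unigenes tested. The sign of the 4 libraries was found again in 53.9% of the 230, against 56.8% of all. Over 6 libraries 218 passed the filter and 0 were called, as for all 59300 unigenes tested (0%). Of these 218, 23 had an unadjusted p under 0.05 (8.06% of all did) and 135 a higher fitted value (52.6% of all did), and the median of the 218 was 0.16, against 0.04. DESeq2 called 2 over 4 libraries, or 1.36% of those to which it gave an adjusted p, where it called 2.9% of all. Over 6 libraries it called 6, or 2.74%, where it called 0.989% of all. The first were CL10921.Contig2 and Unigene47259, and the second were these with CL7119.Contig2, Unigene41180 and Unigene50549, all higher in shade, and Unigene16803, lower. Without the filter edgeR called 4 over 4 libraries, all higher (CL10921.Contig2, CL7119.Contig2, Unigene47259 and Unigene41180), or 1.29%, against 0.757% of all. With 1 of the 4 libraries left out, another is alone in its group and assumed to vary like the other group. Calls from such fits are therefore not read. The median log2 fold change of the auxin-related unigenes was then 0.285 without Y+S1 and 0.243 without Y+S2. It was 0.299 without Y2 and 0.322 without Y3.

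The agreement of single libraries was described by whether the groups overlapped in TMM-normalized CPM. In 43 of the 218 auxin-related unigenes (19.7%) all 3 shaded libraries lay on the same side of all 3 sunlight libraries, against 14% of all unigenes tested. Of the 218, 27 were higher under shading (12.4%, against 6.67% of all unigenes) and 16 were lower (7.34%, close to the 7.28% of all). With 3 libraries against 3 the smallest exact two-sided p of a single unigene is 0.10. The TMM factors were 0.765 in Y1, 0.695 in Y+S3 and 1.085 to 1.286 in the rest, and the deposited FPKM carry no such factor. The scaling mattered, since deposited FPKM gave 32 of the 218, where 11.9% of all unigenes tested were free of overlap. On both scales 22 of the auxin-related unigenes, 14 higher and 8 lower, were free of overlap. The share of all unigenes on both scales was not counted, so these 22 cannot be set against a background.

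**Figure D1:**
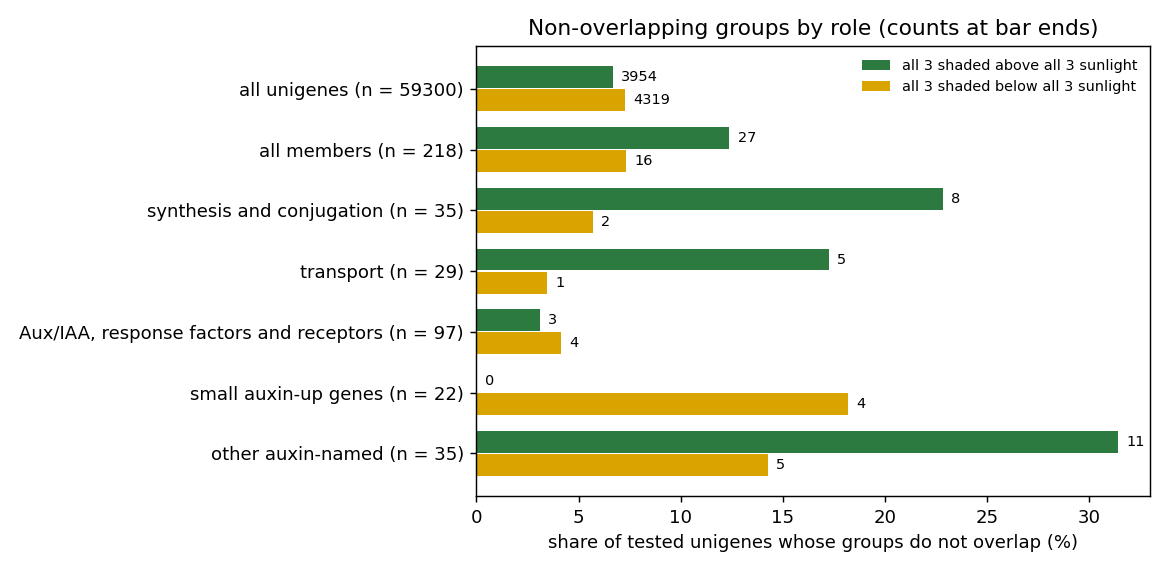
Share of the unigenes tested over 6 libraries (%) in which all 3 shaded libraries lay above (green) or below (yellow) all 3 sunlight libraries in TMM-normalized CPM, for all unigenes, for all tested auxin-related unigenes and by role, with the count at the end of each bar. Of all unigenes 6.67% were higher and 7.28% lower. Higher values lead in synthesis and conjugation (8, or 22.9%, against 2), transport (5, or 17.2%, against 1) and the other auxin-named unigenes (11, or 31.4%, against 5). The 4 of the SAUR (18.2%) lie on the lower side. Aux/IAA, response factors and receptors had 3 higher (3.09%) and 4 lower (4.12%), both below the shares of all unigenes.

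Among the genes of auxin conjugation, the ILR1-type hydrolases, named for freeing IAA from its amino acid conjugates, had the clearest separation. Their 23 unigenes summed to 58.6, 78.1 and 77.8 FPKM in sunlight and to 276, 153 and 218 FPKM in shade, or 71.5 ± 11.2 and 216 ± 61.5 FPKM (mean ± SD, n = 3). The groups did not overlap, and every shaded library was above the highest sunlight library. The separation lay in 4 contigs of the clusters CL7119 and CL10921, which summed to 23.7 ± 5.27 FPKM in sunlight and 153 ± 69.1 FPKM in shade (n = 3), while the other 19 summed to 47.8 ± 8.92 and 63.2 ± 12.6 FPKM, with overlapping groups.

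CL7119.Contig2, ILR1-like 4-like by its annotation, was the most abundant hydrolase. It had 16.5, 20.7 and 13.7 FPKM in sunlight and 202, 59.5 and 59.3 FPKM in shade. All shaded libraries were higher, and Y+S1 stood far above the other shaded ones. The log2 fold change was 2.91 ± 0.62 (SE, adjusted p = 0.156 by edgeR) over 4 libraries and 2.58 ± 0.57 (adjusted p = 0.496) over 6. It was 1.61 with Y+S1 left out and 3.57 with Y+S2 left out, both with Y2 and Y3.

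CL10921.Contig2, ILR1-like 6-like, had 1.97, 3.72 and 4.30 FPKM in sunlight and 17.2, 15.96 and 38.1 FPKM in shade. The 3 shaded values were all higher, and the highest was that of Y+S3. In Arabidopsis the enzyme ILL6 of this name also acts on conjugates of jasmonic acid. The substrates of the hydrolases of CL7119 and CL10921 were not measured, so their names do not fix which conjugates they act on. The log2 fold change of CL10921.Contig2 was 2.01 ± 0.26 (SE) over 4 libraries, with an adjusted p of 0.0682 by edgeR and of 3.99e-05 by DESeq2. Over 6 it was 3.10 ± 0.63 (adjusted p = 0.496 by edgeR and 0.00103 by DESeq2). The second contigs of both clusters did not overlap between the groups either. CL7119.Contig1 ranged from 1.045 to 4.39 FPKM in sunlight and from 4.70 to 42.6 FPKM in shade, and CL10921.Contig1 from 0.501 to 0.929 and from 2.20 to 3.24 FPKM. CL7067.Contig1, ILR1-like 4, was the only hydrolase without overlap on the lower side in CPM, with 1.28 to 1.90 CPM in sunlight and 0.386 to 1.08 CPM in shade (log2 fold change -0.81 ± 0.48, adjusted p = 0.4755 by edgeR over 4 libraries). Over the tested hydrolases the median log2 fold change was 0.24 (12 of 18 higher) over 4 libraries and 0.31 (15 of 19 higher) over 6.

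The GH3 synthetases, which act in the opposite direction and bind IAA to amino acids, summed to 71.4 ± 11.97 FPKM in sunlight and 78.6 ± 24.4 FPKM in shade (n = 3), with overlapping groups. Of 13 tested over 6 libraries 3 had no overlap on the higher side (23.1%, against 6.67% of all unigenes) and 1 on the lower (7.69%, against 7.28%). Unigene15006, GH3.3, had 2.13, 2.96 and 1.93 FPKM in sunlight and 4.52, 5.31 and 7.70 FPKM in shade. Its shaded values were all above its sunlight values, and the log2 fold change was 0.93 ± 0.33 (SE, adjusted p = 0.258 by edgeR) over 4 libraries and 1.43 ± 0.51 (adjusted p = 0.574) over 6. Unigene40045, a GH3 synthetase by Nr and the jasmonic acid-amido synthetase JAR1 by Swiss-Prot, had 4.82 to 6.07 CPM in sunlight and 6.32 to 10.9 CPM in shade (log2 fold change 0.62 ± 0.33, adjusted p = 0.428 by edgeR over 4 libraries). CL5303.Contig1 was on the lower side, with 1.82 to 3.85 CPM in sunlight and 0.683 to 1.77 CPM in shade (-1.17 ± 0.57, adjusted p = 0.385). CL5303.Contig4 of the same cluster, chosen after its values were seen, had 22.3, 20.2 and 4.98 FPKM in sunlight and 4.06, 0.796 and 8.78 FPKM in shade, and its groups overlapped.

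The genes of IAA synthesis itself were at low levels. The 5 TAA1/TAR aminotransferases summed to 4.9 ± 2.3 FPKM in sunlight and 6.7 ± 1.9 FPKM in shade (n = 3). CL7348.Contig2, tryptophan aminotransferase-related protein 4, had 0.320, 0.212 and 1.08 FPKM in sunlight and 1.77, 1.55 and 1.27 FPKM in shade. The groups were separate, with Y3 close to the shaded libraries, and the log2 fold change was 1.36 ± 0.62 (SE, adjusted p = 0.355 by edgeR) over 4 libraries. The only YUCCA unigene taken by the rule, Unigene41318, had 0.893 to 2.72 FPKM in sunlight and 0 to 2.11 FPKM in shade, which overlapped. Outside the rule, CL7942.Contig4 is YUCCA10 by Swiss-Prot and a flavin-containing monooxygenase by Nr, and was chosen after its values were seen. It had 3.04 to 4.91 FPKM in sunlight and 3.22 to 7.74 FPKM in shade. Its groups overlapped in FPKM but were free of overlap in CPM on the higher side (0.444 ± 0.299 over 4 libraries, adjusted p = 0.5295 by edgeR).

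**Figure D2:**
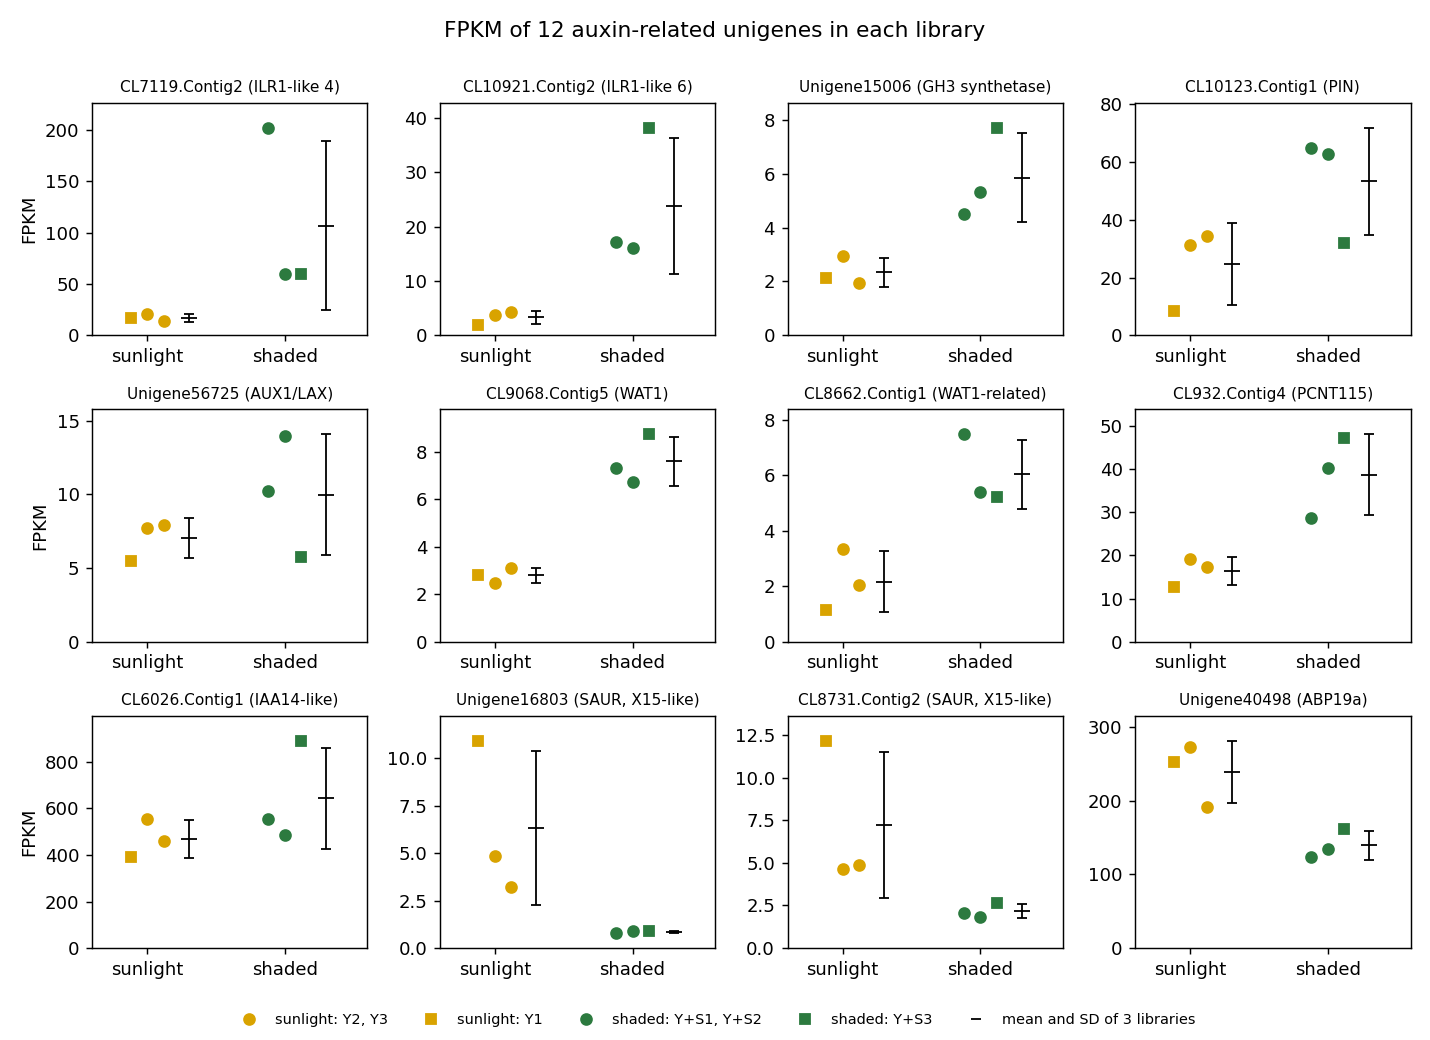
FPKM (linear axis from 0) of 12 auxin-related unigenes in each library, with sunlight libraries in yellow, shaded libraries in green, Y1 and Y+S3 as squares and the mean ± SD of 3 libraries as bars. CL7119.Contig2, CL10921.Contig2, Unigene15006, CL9068.Contig5, CL8662.Contig1 and CL932.Contig4 had every shaded point above every sunlight point, Unigene16803, CL8731.Contig2 and Unigene40498 had every shaded point below, and CL10123.Contig1, Unigene56725 and CL6026.Contig1 overlapped on this scale.

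Of the auxin carriers, 29 were tested over 6 libraries, with 5 free of overlap on the higher side (17.2%, against 6.67% of all unigenes) and 1 on the lower (3.45%, against 7.28%). The PIN efflux carriers, which set the direction of auxin flow, summed to 57.6, 106 and 111 FPKM in sunlight and to 143, 158 and 77.2 FPKM in shade. Y+S1 and Y+S2 were above all sunlight libraries, and Y+S3 was below Y2 and Y3. The median log2 fold change of the tested PIN unigenes was 0.13 (7 of 14 higher) over 4 libraries and -0.20 (4 of 12 higher) over 6. CL10123.Contig1 had 8.54, 31.1 and 34.4 FPKM in sunlight and 65.0, 62.9 and 31.9 FPKM in shade. Its groups overlapped in FPKM but not in TMM-normalized CPM, where sunlight libraries had 29.0 to 74.6 and shaded ones 119 to 151. The log2 fold change was 0.92 ± 0.24 (SE, adjusted p = 0.192 by edgeR) over 4 libraries and 1.16 ± 0.44 (adjusted p = 0.590) over 6. CL10123.Contig3, auxin efflux carrier component 3, had 6.18 to 7.52 CPM in sunlight and 9.38 to 12.4 CPM in shade (0.78 ± 0.25 over 4 libraries, adjusted p = 0.237).

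CL10123.Contig2 of the same cluster, the next in mean FPKM after CL10123.Contig1, overlapped between the groups, with 82.3 to 101 CPM in sunlight and 82.8 to 91.4 CPM in shade (log2 fold change -0.07 ± 0.24, adjusted p = 0.930 by edgeR over 4 libraries). Unigene41180, component 8 by its Nr annotation and component 6 by Swiss-Prot, is a short fragment of 594 nt with 2, 0 and 1 counts in sunlight and 35, 14 and 20 counts in shade. Per counted fragment the shaded libraries together had 17.6 times the sunlight value (95% exact interval 5.76 to 87.2, counting error only). The adjusted p was 0.158 over 4 and 0.496 over 6 libraries by edgeR, and 0.0348 over 6 by DESeq2.

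The AUX1/LAX influx carriers had a median log2 fold change of 0.45 over 4 libraries and 0.44 over 6, with 6 of 7 higher in both. Unigene77618, auxin transporter-like protein 3, had 4.19 to 7.95 CPM in sunlight and 9.38 to 9.60 CPM in shade (log2 fold change 0.45 ± 0.27, adjusted p = 0.470 by edgeR over 4 libraries). Unigene56725, with the same annotation, had 18.3 to 19.9 CPM and 23.1 to 30.2 CPM (0.56 ± 0.24, adjusted p = 0.333). CL13490.Contig1 was lower in shade on both scales, with 6.34, 4.95 and 5.14 FPKM in sunlight and 3.24, 3.64 and 1.97 FPKM in shade (-0.60 ± 0.37, adjusted p = 0.489). BIG, a very large protein needed for polar auxin transport in Arabidopsis, had 5 of 5 tested unigenes higher over 4 libraries (median 1.07) and over 6 (median 0.60), none free of overlap. Its longest contig, CL5188.Contig2 with 10528 nt, had 4.29, 7.27 and 7.93 FPKM in sunlight and 16.2, 10.6 and 2.69 FPKM in shade, so that Y+S3 was the lowest of all libraries. Of the putative auxin:hydrogen symporters, a group to which carriers of the endoplasmic reticulum belong, Unigene45457 had the highest level, with 22.99 ± 6.13 FPKM in sunlight and 22.3 ± 2.78 FPKM in shade (n = 3), which overlapped (-0.39 ± 0.24 over 4 libraries, adjusted p = 0.493 by edgeR).

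**Figure D3:**
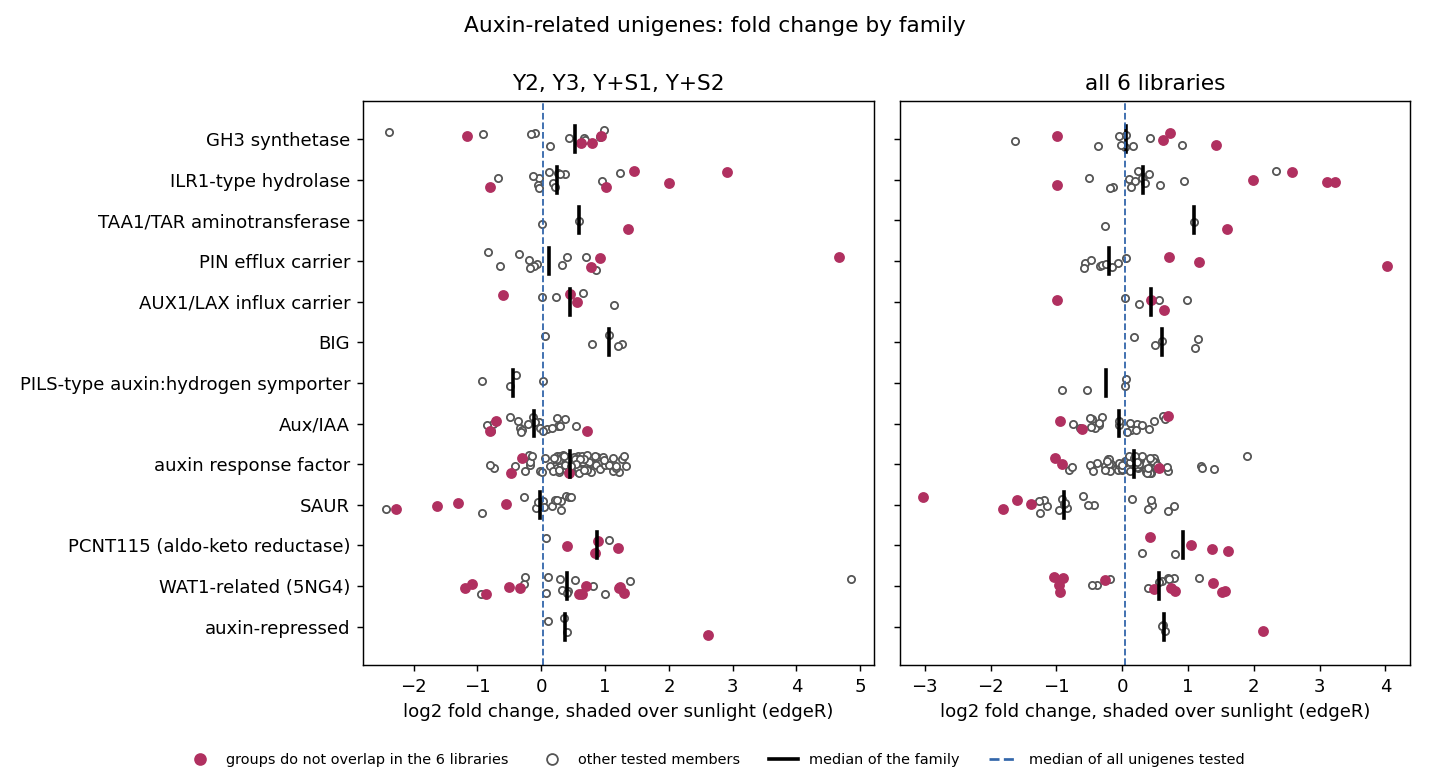
Log2 fold change, shaded over sunlight, of each tested auxin-related unigene by family, over 4 (left) and over all 6 libraries (right), with unigenes free of overlap in the 6 libraries filled, the family median as a black bar and the median of all unigenes tested as a dashed line. The ARFs have a median of 0.46 on the left and 0.18 on the right, the SAUR of -0.01 and -0.88, and the PCNT115 unigenes of 0.87 and 0.92.

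The Aux/IAA repressors had the highest summed level of the response genes, 786 ± 74.3 FPKM in sunlight and 937 ± 168 FPKM in shade (n = 3). The median log2 fold change of 24 tested was -0.12 (9 higher) over 4 libraries and -0.05 (11 higher) over 6. CL6026.Contig1, IAA14-like, had 391, 555 and 462 FPKM in sunlight and 556, 484 and 891 FPKM in shade. Y+S3 stood above all other libraries and the rest overlapped, with a log2 fold change of -0.02 ± 0.31 (SE, adjusted p = 0.989 by edgeR) over 4 libraries and 0.62 ± 0.56 (adjusted p = 0.785) over 6. Unigene27236, IAA9, had 72.8, 68.9 and 83.4 FPKM in sunlight and 107, 94.7 and 35.4 FPKM in shade, so that Y+S3 was here the lowest (0.37 ± 0.25 over 4 libraries, adjusted p = 0.5405). Unigene40059, IAA27-like, had 54.1 ± 12.2 and 44.0 ± 6.37 FPKM (n = 3). Of 24 tested over 6 libraries, 1 was free of overlap in CPM on the higher side (4.17%, against 6.67% of all unigenes). On the lower side there were 2 (8.33%, close to the 7.28% of all). The higher one was CL3168.Contig4, auxin-induced protein 22D, with 3.76 to 3.97 CPM in sunlight and 6.03 to 6.54 CPM in shade (0.72 ± 0.28, adjusted p = 0.290 by edgeR). The lower ones were CL5696.Contig4, IAA26-like (-0.72 ± 0.38, adjusted p = 0.422), and CL10660.Contig4, an isoform of IAA27 (-0.80 ± 0.46, adjusted p = 0.461). The F-box receptors named as members were 4 contigs of 1 cluster, with mean levels from 0.202 to 1.90 FPKM. CL1821.Contig4, AUXIN SIGNALING F-BOX 3, was free of overlap in CPM, with 0.733 to 0.941 CPM in sunlight and 0.968 to 1.34 CPM in shade (0.34 ± 0.47, adjusted p = 0.794). CL1821.Contig8 of the same cluster, not taken by the rule, was more abundant and free of overlap in CPM on the lower side (-0.33 ± 0.24, adjusted p = 0.568). Of 15 F-box receptors outside the rule tested over 6 libraries, 2 were free of overlap on the higher side (13.3%, against 6.67% of all unigenes). On the lower side there was 1 (6.67%, against 7.28%).

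The ARFs, which bind auxin response elements in target promoters, were many and of low level, with a mean FPKM from 0.015 to 21.7 and a median of 0.890. Over 4 libraries 65 of 76 had a higher fitted value in shade, with a median log2 fold change of 0.46. Over 6 libraries 50 of 70 did, with a median of 0.18, and in the pair left out of the 4 the median log2 ratio of Y+S3 to Y1 was -0.64, with the sign of the 4 libraries in 20 of 76. In that pair all unigenes tested had a median of -0.07 and the same sign in 56.8%. Many ARF unigenes are long (median 1989 nt). All unigenes of 2000 nt or more had medians of 0.26 over 4 libraries, 0.17 over 6 and -0.11 in the pair, and the auxin-related ones of that length 0.56, 0.18 and -0.68. The part of length in the result was not tested. The ARF with the highest level, Unigene21738, ARF5-like, chosen for that level after its values were seen, had 15.6, 23.3 and 25.8 FPKM in sunlight and 33.1, 23.8 and 8.89 FPKM in shade, with overlapping groups. Of the 70 ARFs tested over 6 libraries 3 were free of overlap in CPM (4.29%), below the 14% of all unigenes. CL5613.Contig3 and CL5613.Contig4, 2 contigs of ARF1 by Nr and ARF8 by Swiss-Prot, were on the lower side, with 3.39 to 6.60 against 2.05 to 2.85 CPM (log2 fold change -0.48 ± 0.34, adjusted p = 0.554 by edgeR over 4 libraries) and 11.2 to 28.2 against 5.78 to 10.8 CPM (-0.30 ± 0.26, adjusted p = 0.635). Unigene47638, ARF6-like, was on the higher side, with 1.57 to 2.91 against 3.08 to 4.44 CPM (0.44 ± 0.33, adjusted p = 0.571).

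**Figure D4:**
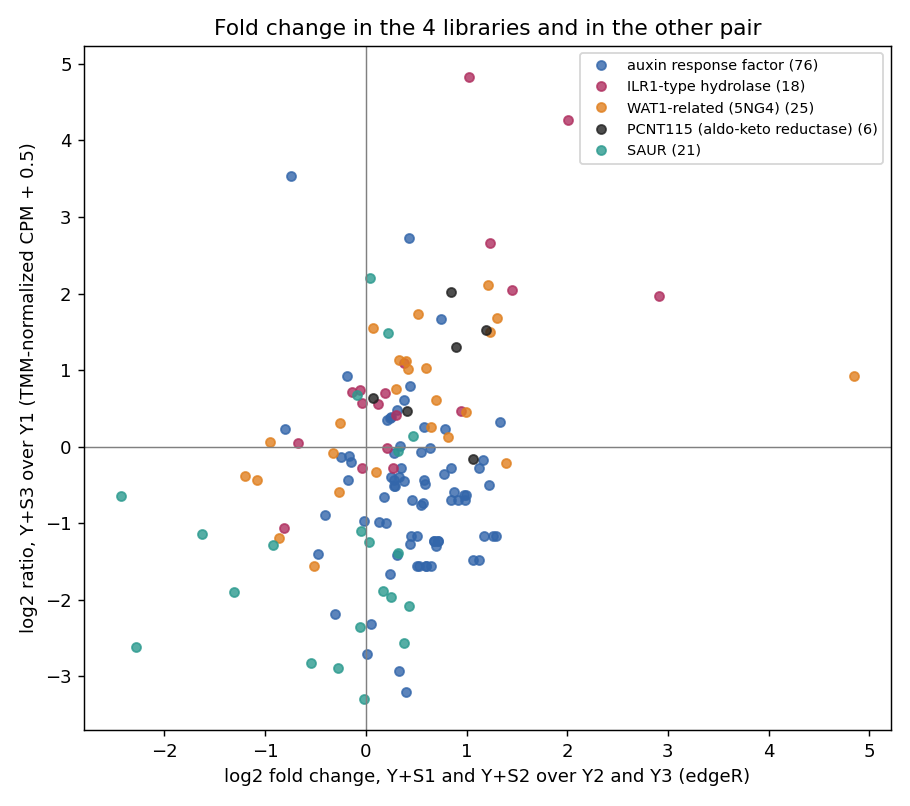
Log2 fold change over the 4 libraries without Y1 and Y+S3 (horizontal axis, edgeR) against the log2 ratio of Y+S3 to Y1 (vertical axis, TMM-normalized CPM + 0.5) for the tested unigenes of 5 families. Most ARFs lie to the right of 0 and below 0, with the same sign on both axes in 20 of 76, while the same sign was found for 12 of 18 ILR1-type hydrolases, 21 of 25 WAT1-related and 5 of 6 PCNT115 unigenes.

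The SAUR, which encode short-lived proteins that promote cell elongation, tended to the lower side where the groups separated. Their 28 unigenes summed to 366, 162 and 214 FPKM in sunlight and to 129, 240 and 156 FPKM in shade, which overlapped. The median log2 fold change was -0.01 (10 of 21 higher) over 4 libraries and -0.88 (6 of 22 higher) over 6, where Y1 had the highest sum. None of the 22 tested over 6 libraries was free of overlap on the higher side and 4 (18.2%) were on the lower, against 7.28% of all unigenes.

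Unigene16803, X15-like, had 10.9, 4.83 and 3.22 FPKM in sunlight and 0.794, 0.908 and 0.887 FPKM in shade. The shaded values were close together, from 4 to 6 counts each, and below the lowest sunlight value. The log2 fold change was -2.28 ± 0.57 (SE, adjusted p = 0.183 by edgeR) over 4 libraries and -3.03 ± 0.74 (adjusted p = 0.512 by edgeR and 0.0409 by DESeq2) over 6. CL8731.Contig2, also X15-like, had 12.2, 4.66 and 4.87 FPKM in sunlight and 2.08, 1.84 and 2.62 FPKM in shade (-1.31 ± 0.38 over 4 libraries, adjusted p = 0.209). CL8100.Contig1, ARG7-like, had 4.46, 2.66 and 4.21 FPKM and 0.631, 1.73 and 1.51 FPKM (-1.63 ± 0.56, adjusted p = 0.254). CL1769.Contig4, also ARG7-like, was free of overlap in CPM only (-0.55 ± 0.39, adjusted p = 0.554). The most abundant SAUR overlapped between the groups. Unigene45138, protein 15A, had 22.8 ± 13.7 FPKM in sunlight and 31.0 ± 20.4 FPKM in shade (n = 3), CL1769.Contig5, 10A5-like, 9.61 to 37.3 and 6.27 to 21.4 FPKM, and Unigene44678, X15-like, ranged from 2.44 to 63.6 FPKM in sunlight and from 1.41 to 36.8 FPKM in shade.

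Markers of dividing cells, among them B-type cyclins, were on the same side as these SAUR. Of 29 tested over 6 libraries 25 had a lower fitted value in shade and 12 were free of overlap, all lower (41.4%, against 7.28% of all unigenes), with a median log2 fold change of -0.72 over 4 libraries and -1.13 over 6. Their summed level was 721 to 902 FPKM in sunlight and 479 to 721 FPKM in shade, and 0 of the 51 were at 0 in all libraries. Their part in the SAUR values was not tested.

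**Figure D5:**
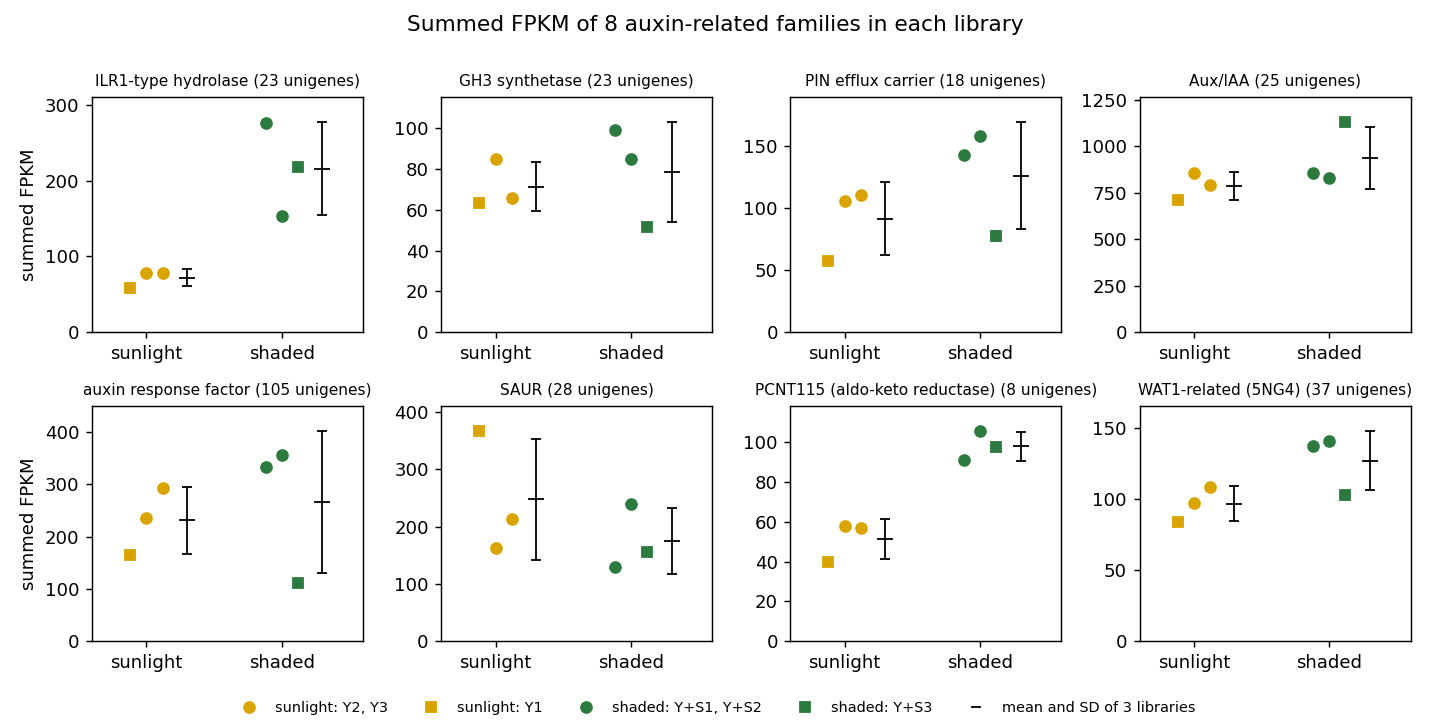
Summed FPKM (linear axis from 0) of 8 auxin-related families in each library, with sunlight libraries in yellow, shaded libraries in green, Y1 and Y+S3 as squares and the mean ± SD of 3 libraries as bars. The ILR1-type hydrolases (58.6 to 78.1 against 153 to 276 FPKM) and the PCNT115 unigenes (39.98 to 57.9 against 90.9 to 106 FPKM) are the families of this plot whose groups do not overlap.

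Among the other auxin-named unigenes, 16 of 35 were free of overlap over 6 libraries (45.7%, against 14% of all unigenes), 11 higher (31.4%, against 6.67% of all) and 5 lower (14.3%, against 7.28% of all). The PCNT115 unigenes, named after an auxin-induced tobacco gene, are aldo-keto reductases by Swiss-Prot. Their 8 unigenes summed to 39.98, 57.9 and 56.8 FPKM in sunlight and to 90.9, 106 and 97.6 FPKM in shade, and every shaded library was above every sunlight library. The fitted value was higher in 6 of 6 tested over both sets of libraries. Of these, 4 contigs of 1 cluster, CL932, were free of overlap, so they are not independent. CL932.Contig4 had 12.6, 19.1 and 17.4 FPKM in sunlight and 28.6, 40.2 and 47.1 FPKM in shade (log2 fold change 0.85 ± 0.25, adjusted p = 0.215 by edgeR over 4 libraries). CL932.Contig5 had 9.01, 14.3 and 13.01 FPKM and 24.5, 28.5 and 20.6 FPKM (0.90 ± 0.24, adjusted p = 0.197). Unigene50549, a perakine reductase by Swiss-Prot, had at most 0.194 FPKM in sunlight and 0.260, 2.92 and 6.69 FPKM in shade, and DESeq2 called it over 6 libraries (adjusted p = 0.0250), while the filter of edgeR removed it.

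WAT1 is a vacuolar auxin carrier needed for secondary wall formation in Arabidopsis fibres. The 37 WAT1-related unigenes went both ways, with 6 of 21 free of overlap on the higher side (28.6%, against 6.67% of all unigenes) and 5 on the lower (23.8%, against 7.28%), and summed to 83.7, 97.4 and 108 FPKM in sunlight and 137, 140 and 103 FPKM in shade. CL9068.Contig5, annotated as WALLS ARE THIN 1 itself, had 2.82, 2.47 and 3.09 FPKM in sunlight and 7.34, 6.75 and 8.75 FPKM in shade. The values of each group were close together and far from those of the other group. The log2 fold change was 1.30 ± 0.29 (SE, adjusted p = 0.160 by edgeR) over 4 libraries and 1.51 ± 0.45 (adjusted p = 0.533) over 6. CL9068.Contig4 of the same cluster had 2.68 ± 0.30 FPKM in sunlight and 6.77 ± 0.38 FPKM in shade (n = 3), and CL8662.Contig1, similar to At5g07050, had 2.17 ± 1.11 and 6.04 ± 1.25 FPKM (1.21 ± 0.39 over 4 libraries, adjusted p = 0.233). Unigene47259, similar to At4g08290, had 1, 0 and 3 counts in sunlight and 112, 39 and 5 counts in shade, a ratio of 29.8 per counted fragment (95% exact interval 11.4 to 111, counting error only). DESeq2 called it over 4 libraries (adjusted p = 0.00104), edgeR did not (adjusted p = 0.126), and Y+S3 was close to the sunlight libraries.

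On the lower side, Unigene26968, similar to At2g37460, had 3.09, 3.89 and 3.85 FPKM in sunlight and 2.24, 2.13 and 1.09 FPKM in shade (log2 fold change -0.87 ± 0.30, adjusted p = 0.258 by edgeR over 4 libraries). CL9636.Contig2 had 1.46 ± 0.33 and 0.729 ± 0.091 FPKM (n = 3, -1.20 ± 0.43, adjusted p = 0.267). Unigene22088 and Unigene15863 were free of overlap in CPM only, with log2 fold changes of -0.51 ± 0.36 and -0.33 ± 0.34. Markers of xylem and fibre had 27 of 33 higher fitted values over 4 libraries, with a median of 0.98, and 25 of 32 over 6, with a median of 0.62. Their summed level was 259 to 307 FPKM in sunlight and 575, 354 and 246 FPKM in shade, with 0 of the 46 at 0 in all libraries, and their part in the WAT1 values was not tested.

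The auxin-repressed proteins, known as markers of dormant or non-growing tissue, included unigenes of very high level. Unigene57301 had 459, 352 and 342 FPKM in sunlight and 327, 450 and 836 FPKM in shade, and Unigene28589 had 243, 163 and 161 FPKM and 211, 231 and 384 FPKM. Both had Y+S3 as the highest library and otherwise overlapped. The low Unigene22308 was free of overlap, with 1.16, 0.268 and 1.01 FPKM in sunlight and 2.31, 6.03 and 3.23 FPKM in shade (log2 fold change 2.62 ± 0.69, adjusted p = 0.193 by edgeR over 4 libraries). Unigene40498, the auxin-binding germin-like protein ABP19a, had 253, 273 and 192 FPKM in sunlight and 123, 135 and 162 FPKM in shade. Its groups did not overlap in FPKM but did in CPM (114 to 237 and 74.7 to 166), and the log2 fold change was -0.92 ± 0.29 (adjusted p = 0.230) over 4 libraries.

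Other genes of the pathway were counted from lists of words searched among the unigenes that the rule did not take, and edgeR called 0 of them over either set of libraries. The ABCB1 and ABCB19 transporters, which export auxin beside the PIN carriers, had 11 of 11 higher fitted values over 4 libraries (median log2 fold change 0.75) and 9 of 11 over 6 (0.69), with 4 free of overlap, all higher (36.4%, against 6.67% of all unigenes). Unigene2105, an ABCB1, had 7.47, 12.6 and 11.1 FPKM in sunlight and 25.3, 25.8 and 18.3 FPKM in shade (1.05 ± 0.27, adjusted p = 0.1885). The class II HD-Zip factors, several of which are known to be induced by shade in Arabidopsis, had medians of 0.72 and 0.94. Of 12 tested over 6 libraries 9 were free of overlap in CPM, 8 higher (66.7%, against 6.67% of all unigenes) and 1 lower (8.33%, against 7.28%). The higher ones included CL3201.Contig1, CL3201.Contig2 and CL3201.Contig3 of 1 cluster, which are not independent. Others were pieces of 215 to 1391 nt named HAT4, which may come from fewer genes. CL3201.Contig3, similar to HAT9, had 6.87, 9.24 and 11.2 FPKM in sunlight and 15.4, 18.99 and 17.97 FPKM in shade (0.70 ± 0.24, adjusted p = 0.258). The lower one was Unigene16151, similar to ATHB-4, with 11.1 to 15.2 FPKM in sunlight and 4.25 to 8.99 FPKM in shade.

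The phytochrome-interacting factors had a median of 0.42 (12 of 14 higher) over 4 libraries and 0.38 (13 of 13 higher) over 6, none free of overlap. Unigenes for the tryptophan and auxin supply had medians of -0.13 and -0.08, with 5 of 29 free of overlap on the higher side (17.2%, against 6.67% of all unigenes) and 4 on the lower (13.8%, against 7.28%). On the higher side CL125.Contig2, tryptophan synthase beta chain 2, which makes the precursor of IAA, had 2.89, 3.21 and 1.10 FPKM in sunlight. It had 22.1, 8.43 and 19.6 FPKM in shade (2.78 ± 0.66, adjusted p = 0.170 by edgeR). The others on that side were nitrilases by annotation. CL1561.Contig1 and CL1561.Contig2, NIT4A by Swiss-Prot, are contigs of 1 cluster and not independent. CL12086.Contig1 is a fragment of 289 nt named nitrilase homolog 1-like, and Unigene9854 is named a nitrilase and fragile histidine triad fusion protein. Their names do not fix a part in IAA supply. Lower in CPM were CL13623.Contig1, tryptophan synthase alpha chain by Swiss-Prot (-0.46 ± 0.24, adjusted p = 0.411), and CL9981.Contig1, anthranilate synthase component II-like (-0.75 ± 0.32, adjusted p = 0.334). CL9956.Contig1, anthranilate synthase component II by Swiss-Prot and GMP synthase by Nr, was lower too. The F-box receptors, SKP1 and cullin-1 of the degradation complex, and TOPLESS corepressors had medians of 0.14, 0.23 and 0.25 over 4 libraries and of -0.15, 0.26 and 0.12 over 6. The 132 unigenes that only Swiss-Prot gave an auxin name had 19 of 91 free of overlap, 11 higher (12.1%, against 6.67% of all unigenes) and 8 lower (8.79%, close to the 7.28% of all). They included CL5058.Contig2, a GH3.5 by Swiss-Prot and a jasmonic acid-conjugating enzyme by Nr, with 2.84, 5.23 and 4.82 FPKM in sunlight and 14.1, 11.9 and 12.9 FPKM in shade (1.33 ± 0.27, adjusted p = 0.152). SAUR of this list went both ways, with 4.69 to 16.3 FPKM in sunlight and 15.9 to 70.1 FPKM in shade in Unigene56760, and 6.94 to 25.6 and 2.82 to 4.04 FPKM in Unigene51578.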

How the data were processed

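Stranded mRNA libraries of leaves were sequenced by the authors on an Illumina HiSeq, filtered, and assembled together with Trinity, TGICL and Phrap. The authors deposited for each unigene and library the raw count of uniquely aligned fragments, and the FPKM, the count scaled for unigene length and for the total of aligned fragments. The aligner and the use of strand are not given in the sources used here, and replicates were not pooled. The members were taken from the Nr annotation, and 1 unigene whose line held no annotation or values was left out.

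In R 4.3.3, filterByExpr removed low unigenes, TMM set the library scale, and the quasi-likelihood fit in edgeR 4.0.16 covered all unigenes, with Benjamini-Hochberg adjustment and a threshold of 0.05. The study’s own cutoff (0.001 for the adjusted p, and at least 1 for the log2 fold change) was met by 0 unigenes in both fits. DESeq2 1.42.0, limma 3.58.1, other filters, scalings and left-out libraries were alternatives, and limma on FPKM over all 6 libraries was added after seeing the data. The tests were tried on simulated counts. Ratios of low counts carry exact 95% intervals.

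The members, roles and lists were chosen with earlier results of these data known. Named per role were unigenes called in either fit (0), the 3 of highest mean FPKM, and up to 4 in each direction free of overlap with a mean FPKM of at least 1 and the largest fold, which gave 41. CL7348.Contig2, Unigene15006, CL5303.Contig4, Unigene41318, Unigene56725, CL5188.Contig2, CL1821.Contig4, CL932.Contig4, CL932.Contig5, Unigene47259 and Unigene50549 were named after their values were seen. Replicates came from different plants. Python 3.11.15 with pandas 2.3.3 and matplotlib 3.10.9 was used for the rest.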

Additional observations from a re-analysis of the deposited data

How the results depend on the processing

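Of the count of called members over 4 libraries (0), DESeq2 gave 2 and no filter gave 4 (0.757% of all unigenes), and leaving out a library gave 0 to 27. Over 6 libraries DESeq2 gave 6 (2.74%, against 0.989% of all), and leaving out a library, no filter, other size factors and limma gave 0. Counting each cluster once left 26 of 158 members without overlap, where 14.1% of all unigenes counted so had none, so the members came nearer to the background than with 43 of 218. The median log2 fold change of the members was 0.155 over 6 libraries, against 0.296 over 4. That of synthesis and conjugation was 0.105 with DESeq2, 0.137 without the filter and 0.193 to 0.390 with a library left out, against 0.283. That of transport was 0.366 with DESeq2, 0.389 without the filter, 0.0629 over 6 libraries and 0.206 to 0.438 with a library left out, against 0.225. That of the SAUR was -0.878 over 6 libraries, against -0.0145, and with a library left out it ranged from -0.620 (without Y+S2) to 0.178 (without Y+S1). The cause was not tested.

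Of the 41 named unigenes 6 changed sign under some alternative, in 12 of 410 values, and all of these were near 0 in the 4 libraries apart from Unigene45457 and Unigene27236. Over 6 libraries Unigene45457 had 0.06, Unigene27236 -0.0497 and CL6026.Contig1 0.62. CL6026.Contig1 had 0.04 with limma at pseudocounts of both 0.1 (0.0356) and 0.5 (0.0356). With a library left out, CL6026.Contig1 ranged from -0.26 to 0.21, CL10123.Contig2 from -0.25 to 0.0828, CL1769.Contig5 from -0.70 to 0.44 and Unigene57301 from -0.0467 to 0.21. An adjusted p of 0.05 or less was reached by CL10921.Contig2 with DESeq2 and with edgeR without the filter. CL7119.Contig2 and Unigene41180 reached it with edgeR without the filter. Otherwise it was reached only in fits with Y+S1 or Y+S2 left out, where 1 shaded library remained, and those are not read.

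The numbers of the libraries did not pair them. Deviations of libraries with the same number correlated at -0.395, 0.00818 and -0.493, and the replicate block over 6 libraries called 0 members. The 4 libraries share only number 2, so no block was fitted there. The spread between libraries was a biological coefficient of variation of 0.282 over 4 libraries and 0.513 over 6, and 81 of the 311 members over 4 libraries and 93 over 6 did not pass the filter and were tested by edgeR only without it.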
